A study of Homo sapiens with 6 samples.

Results

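The nonsense-mediated decay (NMD) factors examined here were 9 genes, UPF1, UPF2, UPF3A, UPF3B, SMG1, SMG5, SMG6, SMG8 and SMG9. They were taken by gene symbol (GENCODE release 44) from the 60676 genes listed in the deposited tables of histidine depletion and tryptophan depletion, of which 35869 had a read in any library. All 9 were found, and all 9 passed the filter on low values. Their transcripts were measured by RNA-seq in HT29, an established human colorectal adenocarcinoma cell line labelled wild type (WT), that was left untreated or kept for 48 h without histidine or without tryptophan, with 2 samples per group and 6 libraries in all. No labelled allele or other agent separates the groups. The histidine-free medium was RPMI-based and the tryptophan-free medium DMEM F-12-based, both with dialyzed serum, whereas for RNA-seq the methods give no base for the control medium. Full RPMI is named as the control for the same depletions in the proteomic experiments, and whether it also served here was not stated. The effect of tryptophan and that of its base medium, and of histidine if the control base was not RPMI, therefore cannot be told apart. No source says that the 2 samples of a group came from separate cultures, so the p-values measure only the spread between these samples, which may be technical.

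NMD is the pathway by which cells degrade mRNAs whose stop codon lies in a premature or otherwise unusual context. UPF1 is its RNA helicase, which UPF2 and the paralogs UPF3A and UPF3B connect to the exon junction complex, a protein mark left upstream of spliced junctions. The kinase SMG1, held in check by SMG8 and SMG9, phosphorylates UPF1, and phosphorylated UPF1 recruits SMG6, an endonuclease that cleaves the target, and SMG5, which leads to decapping and deadenylation. Many transcripts of stress genes are themselves targets, and several factor mRNAs are known to be targets of their own pathway.

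The libraries held between 46.4 M and 64.4 M reads on genes (46390819 to 64388876), recovered as whole reads from every deposited value. Every member had at least 888 reads in each library. The untreated samples differed most between replicates (chi-square per degree of freedom 9.74 over 15772 genes, against 4.40 after histidine depletion and 1.94 after tryptophan depletion), so no pair of replicates agreed within sampling noise. Of 10 colon epithelium markers, 9 reached a mean of 10 counts scaled over all libraries. The exception, CDX1, had at most 21.9 such counts in untreated cells and 0 in both histidine-depleted libraries. The epithelial sum ranged from 407872 to 433185 in untreated, 494891 to 523458 in histidine-depleted and 570371 to 574302 in tryptophan-depleted cells. Its markers went both ways after histidine depletion. KRT20 went from 10264 and 10759 to 34599 and 35062.5, and LGALS4 from 54147.5 and 56465 to 17513 and 19660. Of 8 leukocyte and mast cell markers, only LYZ, which intestinal epithelium can also express, reached a mean of 10. KIT, TPSAB1 and CPA3 were at 0. The summed level of this list ranged from 64777 to 69403 in untreated, 12424 to 14444 in histidine-depleted and 38036 to 38060 in tryptophan-depleted cells. Only COL1A1 of 6 fibroblast markers and PECAM1 and VWF of 4 endothelium markers passed 10, with summed levels of at most 71.6 and 55.7 in any library. The part of these cells in the results was not tested. In such bulk RNA, fewer cells of a kind and less RNA per cell cannot be told apart.

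In GRCh38, the helicase gene UPF1 lies on chromosome 19 (18831959 to 18868230, plus strand), UPF2 on chromosome 10 (11920022 to 12043170, minus strand), UPF3A on chromosome 13 (114281601 to 114305817, plus strand) and UPF3B on chromosome X (119834022 to 119852998, minus strand). The kinase gene SMG1 spans 18804860 to 18926408 of chromosome 16 (minus strand), and the genes of its partners SMG8 and SMG9 span 59209400 to 59215239 of chromosome 17 (plus strand) and 43727983 to 43754962 of chromosome 19 (minus strand). SMG5 lies on chromosome 1 (156249224 to 156282825, minus strand), and SMG6 on chromosome 17 (2059839 to 2303785, minus strand). The counts for each gene are sums over its exons, UTRs included. Counting could be uncertain for SMG1, which has 7 annotated pseudogenes with reads equal to 6.51% to 8.51% of its own, and for UPF3A, with 3 pseudogenes and 6.04% to 7.40%. On the opposite strand, HIC1 and ENSG00000236838 overlap 24.7% of the exonic bases of SMG6, but HIC1 had 13 to 30 reads and the other gene at most 1. ENSG00000265303 shares 11.3% of the exonic bases of SMG8 on the same strand and had 0 reads in every library.

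The 250 bases upstream of the start site are shown for the members with the most pronounced rises after histidine depletion, UPF1 and UPF3B, and for SMG6, which fell. They come from RefSeq (GRCh38.p14), 5′ to 3′ on the gene's own strand, at chr19:18831709-18831958 for UPF1 (plus), chrX:119852964-119853213 for UPF3B (minus) and chr17:2303786-2304035 for SMG6 (minus). Capitals mark the GC box GGGCGG and the CCAAT box CCAAT, each on either strand. The last bases of the UPF3B window lie inside the GENCODE gene.
UPF1: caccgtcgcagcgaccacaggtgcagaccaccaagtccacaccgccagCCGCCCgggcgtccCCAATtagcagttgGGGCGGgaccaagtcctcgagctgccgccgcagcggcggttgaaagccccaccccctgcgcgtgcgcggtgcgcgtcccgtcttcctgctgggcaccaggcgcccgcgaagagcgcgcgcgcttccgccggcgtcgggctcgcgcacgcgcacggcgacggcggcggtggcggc
UPF3B: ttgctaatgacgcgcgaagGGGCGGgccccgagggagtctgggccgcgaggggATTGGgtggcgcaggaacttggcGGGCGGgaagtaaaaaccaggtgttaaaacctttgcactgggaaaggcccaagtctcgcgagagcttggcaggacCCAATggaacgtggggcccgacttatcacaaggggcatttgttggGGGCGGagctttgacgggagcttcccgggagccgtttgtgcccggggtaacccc
SMG6: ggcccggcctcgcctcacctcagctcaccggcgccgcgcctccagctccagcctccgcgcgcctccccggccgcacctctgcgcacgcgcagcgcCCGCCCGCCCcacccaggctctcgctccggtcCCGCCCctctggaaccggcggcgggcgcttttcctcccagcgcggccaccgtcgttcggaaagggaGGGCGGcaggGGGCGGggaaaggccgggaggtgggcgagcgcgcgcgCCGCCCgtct

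The same table held the upstream bases of 8 of the 9 members, without SMG8. GC content was 75.6% for UPF1, 62.8% for UPF3B and 79.6% for SMG6, and it ran from 55.6% (SMG5) to 79.6% over the 8, where the median of all 35116 windows was 58%. The GC box was in 6 of 8 windows (UPF1, UPF2, UPF3A, UPF3B, SMG1 and SMG6) and in 42.6% of all windows. The CCAAT box was in 4 (UPF1, UPF2, UPF3B and SMG5) and in 32% of all. The ETS core CCGGAAG was found in UPF3A alone (8.52% of all), the NRF1 core CGCATGCG in SMG9 alone (1.73%) and the E-box CACGTG in UPF2 alone (6.34%). Neither TGATGNAA, the composite element bound by ATF4 (3.14% of all), nor the TATA box TATAAA (10.7%) occurred in any of the 8. The upstream sequence of UPF1 and UPF3B, which rose, and that of SMG6, which fell, thus all held GC boxes. Motifs were searched on both strands and could overlap, and a match of letters describes the window only.

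How abundant the factors were before depletion was compared on 1 scale, counts of all 6 libraries scaled together and divided by exonic length. SMG5 was the most abundant member in untreated cells, at 3070 ± 110.3 scaled counts per kb of exon (SD, n = 2), above 95.6% of 13181 protein-coding genes. UPF2 (1324 ± 60.8) and UPF3B (1132 ± 6.46) followed, then SMG9 (861 ± 5.96), UPF3A (812 ± 1.19), UPF1 (791 ± 50.5) and SMG1 (547 ± 43.997). The SMG8 level (258 ± 1.28) was near the median of protein-coding genes (240.1), and SMG6 was lowest (124 ± 5.86, above 36.2% of genes). Among neighbours in this order only UPF3A and UPF1 overlapped between their libraries. The endonuclease SMG6 was thus the scarcest transcript and SMG5, of the other branch, the most abundant, although the lengths count all annotated exons and not the isoforms in use.

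That order changed in part with depletion. After histidine depletion UPF3B (2382 ± 44.5 scaled counts per kb) stood above UPF2 (1750 ± 0.914), and UPF1 (1433 ± 33.0) beside SMG9 (1406 ± 7.45), with overlapping libraries. After tryptophan depletion the order was SMG5, UPF2, UPF3B, UPF3A, SMG9, UPF1, SMG1, SMG8 and SMG6, with overlap only between UPF3A (716 ± 13.7) and SMG9 (709 ± 4.18). All members together took 0.118% and 0.121% of the reads in the untreated libraries, 0.149% in both histidine-depleted libraries, and 0.105% and 0.104% in the tryptophan-depleted libraries.

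**Figure D1:**
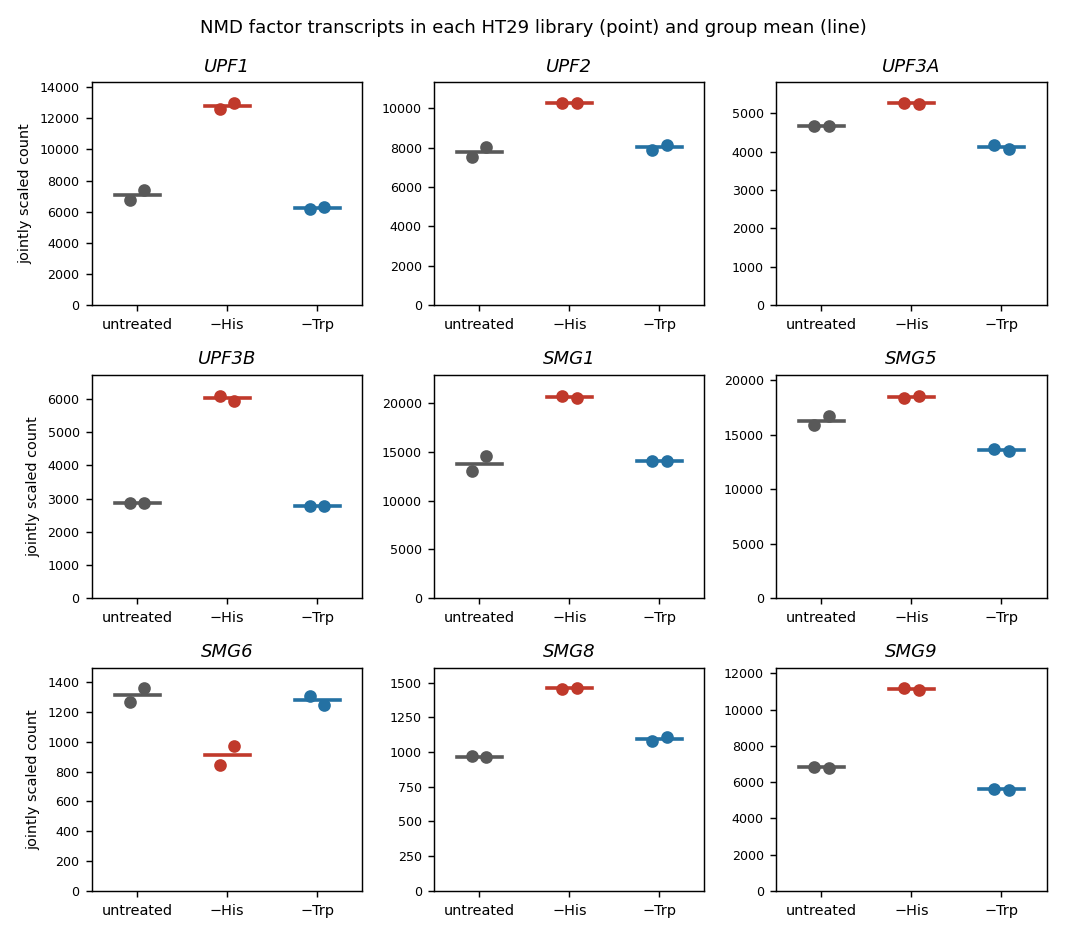
Counts of each NMD factor, scaled together over the 6 libraries (linear axis from 0), in untreated, histidine-depleted (−His) and tryptophan-depleted (−Trp) HT29 cells, with a point for each library and a line at the group mean of 2. On this scaling (under quantile normalization SMG5 changes sign) all histidine-depleted points lie above the untreated ones except those of SMG6, which lie below, and the tryptophan-depleted mean lies closer to the untreated mean than the histidine-depleted mean does except in SMG5.

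Without histidine, transcripts of 8 of the 9 factors rose and SMG6 fell, as tested with limma on log2(normalized count + 1), a scale on which changes of low counts are understated. All 9 passed an adjusted p of 0.05 under the scaling of the deposited tables, whereas under quantile normalization 6 rose, with UPF3A at 0.015 (adjusted p = 0.703) and SMG5 at -0.065 (adjusted p = 0.0514). This test called 39.1% of the 18288 tested genes higher and 38.2% lower, so a call alone says little and the size is given for each member. The median log2 fold change was 0.59 over the members and 0.010 over all genes tested, and 0.33 over the members under quantile normalization. Only UPF3B reached a log2 fold change of 1, a limit that 16.4% of tested genes passed upward. In every member the 2 histidine-depleted libraries lay outside the range of the untreated ones, as they did in 88.1% of all tested genes.

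Within the UPF core, UPF3B and UPF1 moved most. UPF3B, the main adaptor to the exon junction complex, had 2846 and 2834 normalized counts in untreated and 6109 and 5924 in histidine-depleted libraries. Both depleted values lay far above the untreated ones, a 2.12-fold rise of the mean and a log2 fold change of 1.08 (standard error 0.0503, adjusted p = 1.00e-15), larger than that of 85.3% of tested genes. UPF1 was at 6678 and 7338 in untreated and at 12594 and 12954 in histidine-depleted libraries, which did not overlap (1.82-fold, log2 fold change 0.87, standard error 0.0529, adjusted p = 2.00e-13). UPF2, which bridges UPF1 and UPF3B, went from 7454 and 7985 to 10287.5 and 10249.7 normalized counts. Its rise was smaller (1.33-fold, log2 fold change 0.41, adjusted p = 8.07e-08, and 0.17 under quantile normalization). UPF3A, the paralog with the weaker activity, had 4618 and 4646 against 5278 and 5214.5 normalized counts, a narrow but complete separation. That difference (1.13-fold, log2 fold change 0.18, 95% interval 0.078 to 0.28, adjusted p = 0.00209) was not past the threshold without histidine depletion replicate 1 (0.17, adjusted p = 0.0572).

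The paralogs UPF3A and UPF3B, which compete for UPF2, therefore shifted against each other. Per kb of exon, UPF3B had 1.40 and 1.39 times the reads of UPF3A in untreated libraries, 2.63 and 2.58 times after histidine depletion, and 1.503 and 1.56 times after tryptophan depletion. The ratio of UPF2 to UPF1 per kb moved the other way, from 1.70 and 1.65 in untreated libraries to 1.24 and 1.202 without histidine, and it was 1.94 and 1.97 without tryptophan. In both ratios the 3 groups did not overlap.

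All 3 subunits of the SMG1 complex rose after histidine depletion. The kinase SMG1 was at 12851 and 14456 normalized counts in untreated and at 20781 and 20389.9 in histidine-depleted libraries. The untreated replicates of SMG1 spread more than those of its partners, yet stayed below both depleted libraries (1.51-fold, log2 fold change 0.59, standard error 0.0561, adjusted p = 7.99e-10). With the reads of the 7 pseudogenes added, its log2 fold change was 0.61, and under quantile normalization it was 0.33. SMG8, which restrains the kinase, had 961 and 958 against 1458 and 1452 normalized counts (1.52-fold, log2 fold change 0.60, adjusted p = 4.16e-09). Its replicates lay close together in both groups. SMG9, the partner that ties SMG8 to the kinase, had 6770.1 and 6730.1 against 11164 and 11032 normalized counts (1.64-fold, log2 fold change 0.72, adjusted p = 1.60e-12). Relative to SMG1, SMG9 had 1.68 and 1.48 times its reads per kb in untreated and 1.71 and 1.72 times in histidine-depleted libraries, and SMG8 0.502 and 0.445 times against 0.471 and 0.478 times, so for SMG8 the depleted ratios lay within the untreated range.

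On the deposited scaling the decay effectors went apart. Under quantile normalization the log2 fold change was -0.065 for SMG5, not past the threshold, and -0.40 for SMG6. SMG5 had 15707 and 16590 normalized counts in untreated and 18419 and 18522 in histidine-depleted libraries. The groups did not overlap, but the rise was small (1.14-fold, log2 fold change 0.19, 95% interval 0.088 to 0.30, adjusted p = 0.00155), and its call was lost without histidine depletion replicate 1 or replicate 2 (adjusted p = 0.0777 and 0.0906). SMG6, the endonuclease, was at 1257 and 1349 normalized counts in untreated and at 841 and 971 in histidine-depleted libraries. Both depleted libraries lay below, at 0.694 of the untreated mean (log2 fold change -0.53, standard error 0.0719, 95% interval -0.68 to -0.38, adjusted p = 4.32e-07), and the direction held under every setting tried (-0.63 to -0.40). SMG6 had 0.0402 and 0.0408 of the reads of SMG5 per kb in untreated, 0.0229 and 0.0263 in histidine-depleted and 0.0479 and 0.0464 in tryptophan-depleted libraries.

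Tryptophan depletion, which was compared with the same untreated libraries in its own table, gave differences in both directions, smaller than those after histidine depletion except for SMG5 and UPF3A, which fell by slightly more than they had risen. SMG5, SMG9, UPF1 and UPF3A fell, SMG8 rose, and UPF2, UPF3B, SMG1 and SMG6 did not pass the test. The test called 36.1% of the 17960 tested genes higher and 34.8% lower. Its adjusted p-values are not comparable with those after histidine depletion, as limma pooled variance over genes to a different degree in each fit. The median log2 fold change of the members was -0.056, against 0.013 over all genes tested, and none reached 1 in either direction. The groups did not overlap in 6 of the 9 members, against 84.1% of all tested genes.

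SMG9 had 6725 and 6660.1 normalized counts in untreated and 5487 in both tryptophan-depleted libraries, 0.820 of the untreated mean (log2 fold change -0.29, standard error 0.0466, adjusted p = 2.10e-08). SMG5 went from 15602 and 16417.5 to 13333 and 13264 (log2 fold change -0.27, standard error 0.0477, adjusted p = 2.81e-07). Neither overlapped the untreated range. UPF1 had 6633 and 7262 against 6023 and 6156 normalized counts, and UPF3A 4587 and 4598 against 4067 and 3992. Both fell by 0.19 on the log2 scale (adjusted p = 0.000198 for UPF1 and 0.000219 for UPF3A). The fall of UPF1 did not pass without tryptophan depletion replicate 1 (-0.17, adjusted p = 0.0555) and was -0.12 without untreated replicate 2.

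SMG8 was the only member that rose without tryptophan, from 954 and 948 to 1051 and 1087 normalized counts (1.12-fold, log2 fold change 0.17, standard error 0.0634, adjusted p = 0.0135). Its call did not hold without tryptophan depletion replicate 1 or replicate 2 (adjusted p = 0.0551 and 0.164) or with DESeq2 (0.105), whereas quantile normalization gave 0.27 (adjusted p = 0.000623). Relative to SMG9, SMG8 had 0.300 and 0.301 of the reads per kb in untreated libraries, 0.276 and 0.278 without histidine, and 0.405 and 0.419 without tryptophan.

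UPF3B, with the largest rise in the other depletion, had 2827 and 2805 normalized counts in untreated and 2688 and 2731 in tryptophan-depleted libraries. The values were lower without overlap, but the difference (log2 -0.056, 95% interval -0.15 to 0.043, adjusted p = 0.318) was not past the threshold. UPF2 had 7404 and 7902 against 7695 and 7975 (log2 0.034, interval -0.058 to 0.13, adjusted p = 0.517), and SMG1 12765 and 14306 against 13726 and 13833 (log2 0.028, interval -0.067 to 0.12, adjusted p = 0.614). In both of these the untreated replicates were farther apart than the group means. Without untreated replicate 2, UPF2 and SMG1 were called higher (0.081, adjusted p = 0.0327, and 0.11, adjusted p = 0.00122), and without untreated replicate 1 their sign was negative (-0.013 and -0.054). SMG6 had 1249 and 1335 against 1272 and 1226 (log2 -0.048, interval -0.17 to 0.070, adjusted p = 0.477).

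**Figure D2:**
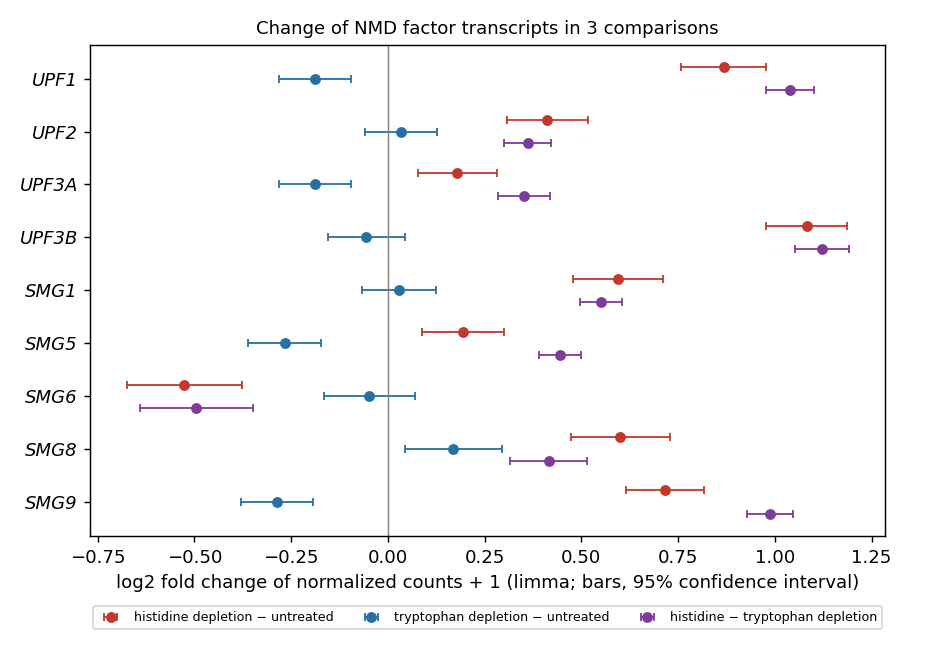
Log2 fold change of each NMD factor with its 95% confidence interval (limma, log2 of normalized counts + 1, 2 libraries per group) for histidine depletion against untreated, tryptophan depletion against untreated, and histidine against tryptophan depletion. Histidine depletion lies right of 0 for 8 members (for SMG5 the sign is negative under quantile normalization) and left for SMG6, while tryptophan depletion spans only -0.29 to 0.17.

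Whether the depletions differed from each other was tested directly, on reads of all 6 libraries scaled together. In this comparison 39.9% of 18276 tested genes were called higher with histidine depletion and 38.4% lower. The same 8 members were higher without histidine than without tryptophan, and SMG6 was lower. UPF3B was at 6109 and 5949 jointly scaled counts without histidine and at 2760 and 2780 without tryptophan (log2 difference 1.12, standard error 0.0318, adjusted p = 1.71e-11). UPF1 followed with 12593 and 13010 against 6184 and 6268 (1.04, standard error 0.0283, adjusted p = 1.21e-11). SMG9 had 11163 and 11079 against 5633 and 5586 (0.99, adjusted p = 1.23e-11). These were the members furthest apart. No member's groups overlapped, nor did those of 88.8% of all tested genes. The differences of SMG1 (0.55), SMG5 (0.45), SMG8 (0.42), UPF2 (0.36, and 0.21 under quantile normalization) and UPF3A (0.35) were smaller, with adjusted p from 8.67e-10 (SMG1) to 3.80e-06 (SMG8). SMG6 had 841 and 975 against 1306 and 1248, a difference of -0.50 (adjusted p = 2.69e-05). The median difference was 0.45 over the members and 0.018 over all genes tested.

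The genes whose profile over the 6 libraries lay closest to that of UPF3B, the member that changed most without histidine, were sought by Euclidean distance between centred log2 values among 18264 genes. ZKSCAN5, a zinc finger gene, was closest (distance 0.0554), with 1211 and 1201 jointly scaled counts in untreated, 2533 and 2440 in histidine-depleted and 1156 and 1121 in tryptophan-depleted libraries. RELT, a tumor necrosis factor receptor family member (0.0592), and PAK1IP1, a ribosome biogenesis factor (0.0671), came next, with log2 differences of 1.06 and 1.02 between histidine-depleted and untreated cells. The likeness describes 6 points that share library, scaling and depth.

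Partners and regulators of the factors were a list of 13 genes. Of all tested genes, 39.1% were called higher and 38.2% lower after histidine depletion. Of the 13, 6 rose, 5 fell and 2 did not pass, with a median log2 fold change of 0.097. Without histidine depletion replicate 1 or replicate 2, the count that fell was 3. PNRC2, which links UPF1 to decapping, went from 8818 and 9329 to 14009 and 13700.3 normalized counts (log2 fold change 0.61, adjusted p = 7.01e-11). DHX34, a helicase that binds the SMG1 complex and UPF1, rose by a log2 fold change of 0.43 (adjusted p = 4.22e-08), as did RUVBL2, an ATPase that associates with SMG1 (0.43, adjusted p = 8.43e-08). These 3 values were 0.35, 0.28 and 0.16 under quantile normalization. RUVBL1, which works with RUVBL2 as a pair and was named here after its values were seen, fell by 0.24 (adjusted p = 0.000136). MOV10, an RNA helicase found with UPF1, fell from 4523 and 4376 to 2524 and 2658 (log2 fold change -0.78, adjusted p = 1.34e-12). The list thus held changes of both signs, as did all tested genes.

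Of all tested genes, 36.1% were called higher and 34.8% lower after tryptophan depletion. In that comparison 5 of these partners rose, 2 fell and 6 did not pass. Under quantile normalization 4 fell, and 4 fell without untreated replicate 1, while 3 rose without tryptophan depletion replicate 2 or without the trend. RUVBL1 and RUVBL2, which work as a pair, both fell by 0.60 on the log2 scale (adjusted p = 1.61e-24 and 1.93e-24), RUVBL1 from 8230.1 and 8610.2 to 5549 and 5565 normalized counts. NBAS, an NMD factor at the endoplasmic reticulum, rose from 1495 and 1704 to 2368 and 2561 (log2 fold change 0.63, adjusted p = 5.66e-21), and ETF1, the release factor that recognises stop codons, rose by 0.34 (adjusted p = 1.93e-10). Between the depletions 6 of the 13 were higher and 7 lower without histidine (39.9% and 38.4% of all tested genes). The median difference was -0.12. RUVBL2 was higher (12934 and 13477 against 6460.2 and 6634 jointly scaled counts, log2 difference 1.01, adjusted p = 2.52e-11), as was PNRC2 (0.67, adjusted p = 3.05e-10), and MOV10 (-0.88, adjusted p = 5.13e-10) and NBAS (-0.55, adjusted p = 2.52e-07) were lower.

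The exon junction complex is the mark that UPF3B reads. After histidine depletion 6 of its 10 genes rose and 4 fell (39.1% and 38.2% of all tested genes). The median log2 fold change was 1.05, where that of the members was 0.59. EIF4A3, the helicase that clamps the complex on RNA, went from 4273 and 4506 to 9899 and 9798 normalized counts (2.24-fold, log2 fold change 1.17, adjusted p = 2.12e-16). CASC3, a cytoplasmic core subunit, went from 8627 and 8725 to 19951.5 and 20087 (2.31-fold, log2 fold change 1.21, adjusted p = 8.59e-17). SAP18, of the associated ASAP complex, went from 8742 and 9211 to 22469 and 22600.5 (2.51-fold, log2 fold change 1.33, adjusted p = 2.27e-17). These 3 rises were more than 2-fold with replicates close together. MAGOHB, which together with its near-identical paralog MAGOH forms the heterodimer with RBM8A, fell from 1307 and 1310.4 to 621 and 601 (log2 fold change -1.10, adjusted p = 2.42e-13). RBM8A, named after its values were seen as the other subunit of that dimer, had 3672 and 3870.1 against 7745 and 7825 (log2 fold change 1.05, adjusted p = 1.96e-15), so the partner subunits went opposite ways. Reads that fit both MAGOH and MAGOHB may have been split or lost in counting.

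After tryptophan depletion 8 of the 10 fell, 1 rose and 1 did not pass, with a median of -0.28. Of all tested genes, 34.8% were called lower and 36.1% higher. MAGOHB fell by 0.73 on the log2 scale (1298 and 1297 to 777 and 782 normalized counts, adjusted p = 2.66e-21) and MAGOH by 0.63 (adjusted p = 1.32e-20). ACIN1, of the ASAP complex, fell by 0.33 (adjusted p = 3.01e-10) and PNN, a splicing factor of the same list, by 0.31 (adjusted p = 2.66e-09). The only rise was that of SAP18 (log2 fold change 0.13, adjusted p = 0.00753, and 0.069 under quantile normalization), named after its values were seen here, whose call did not hold without tryptophan depletion replicate 1 or replicate 2, where no gene of the list was called higher. In the direct comparison 39.9% of all tested genes were called higher without histidine and 38.4% lower. Of the list, 7 genes were higher, 1 was lower (2 under quantile normalization) and 2 did not pass, with a median difference of 1.22. ACIN1 differed most, at 21419 and 21440.4 jointly scaled counts without histidine against 8217 and 8383 without tryptophan (log2 difference 1.37, adjusted p = 6.37e-13), followed by RBM8A (1.34), EIF4A3 (1.28) and CASC3 (1.27).

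**Figure D3:**
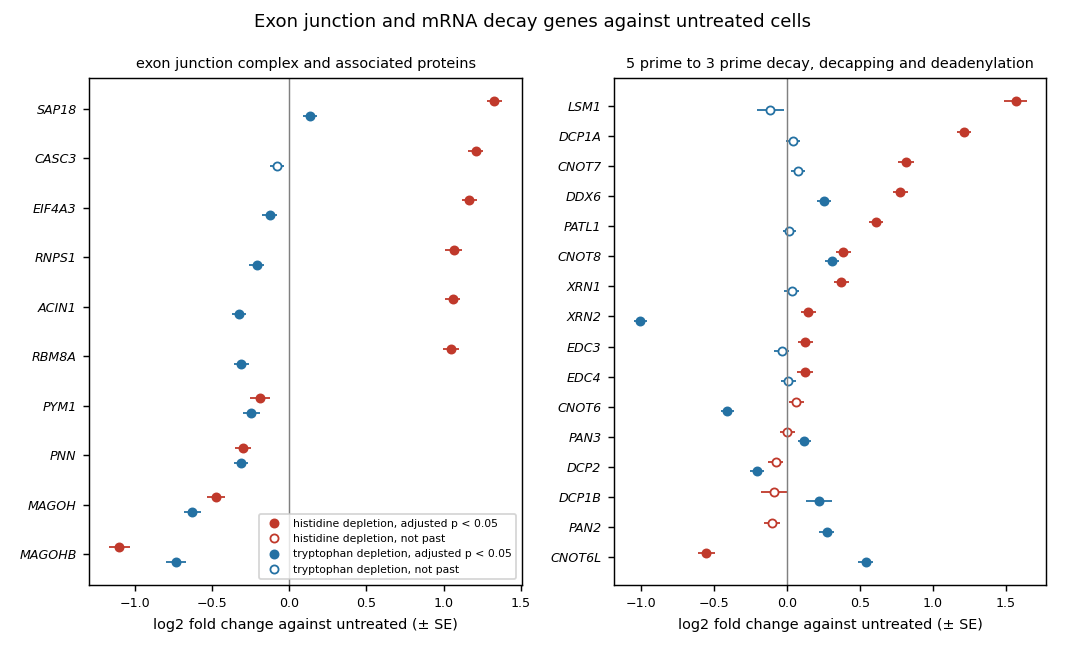
Log2 fold change against untreated cells (± standard error) of the exon junction complex genes (left) and of the genes of decapping, deadenylation and 5′ to 3′ decay (right), for both depletions. Filled points passed an adjusted p of 0.05. On this scaling 6 exon junction genes lie above 1 after histidine depletion, while 8 of the 10 were called lower after tryptophan depletion. Under quantile normalization EIF4A3 (0.96), RBM8A (0.86) and CASC3 (0.95) lie below 1 after histidine depletion.

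Enzymes that carry out decay of the mRNA body were examined in 2 lists. Of all tested genes, 39.1% were called higher and 38.2% lower after histidine depletion. Of 16 genes of decapping, deadenylation and 5′ to 3′ decay, 10 rose, 1 fell and 5 did not pass after histidine depletion, with a median of 0.14, whereas under quantile normalization 7 rose and 6 fell, and 2 fell without either untreated replicate. LSM1, of the ring that binds deadenylated ends, went from 396 and 384 to 1217 and 1100.2 normalized counts (2.96-fold, log2 fold change 1.57, adjusted p = 3.13e-15). DCP1A, the decapping activator, went from 3118 and 3101 to 7316 and 7098 (2.32-fold, log2 fold change 1.21, adjusted p = 9.23e-17). CNOT7, a deadenylase of the CCR4-NOT complex, rose by 0.82 (adjusted p = 4.56e-13), and DDX6, the helicase between deadenylation and decapping, by 0.78 (adjusted p = 1.45e-12). These 4 stayed past the threshold under every alternative without a limit on the fold change.

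After tryptophan depletion 6 of the 16 rose, 3 fell and 7 did not pass, with a median of 0.039. Of all tested genes, 36.1% were called higher and 34.8% lower. XRN2, the nuclear exonuclease, fell from 9341 and 9765 to 4784 and 4761 normalized counts (0.4998 of the untreated mean, log2 fold change -1.001, adjusted p = 1.72e-44). The paralogous deadenylases CNOT6 and CNOT6L went opposite ways, CNOT6 by -0.41 (adjusted p = 5.78e-14) and CNOT6L by 0.54 (2473 and 2683 to 3746 and 3743, adjusted p = 1.61e-19), while CNOT8 rose by 0.31 (adjusted p = 3.74e-09). Without histidine CNOT6L was lower than without tryptophan, at 1765 and 1790 against 3846 and 3811 jointly scaled counts (log2 difference -1.11, adjusted p = 4.35e-11). LSM1 (1.66), DCP1A (1.15) and XRN2 (1.13) were higher without histidine than without tryptophan. In that comparison 11 of the 16 were higher and 4 lower (39.9% and 38.4% of all tested genes).

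Of 10 genes of the exosome and the Ski complex, which degrade RNA from the 3′ end, 6 rose and 4 fell after histidine depletion. The median was 0.15, and 39.1% of all tested genes were called higher and 38.2% lower. DIS3, the catalytic subunit, went from 7533 and 7945 to 13394 and 12873 normalized counts (log2 fold change 0.76, adjusted p = 1.06e-12, and 0.50 under quantile normalization). HBS1L, a ribosome rescue factor, rose by 0.76 (adjusted p = 1.35e-12) and EXOSC4, of the exosome ring, by 0.58 (adjusted p = 6.57e-08), whereas SKIC8, a Ski subunit, fell by 0.64 (adjusted p = 1.07e-09). After tryptophan depletion 36.1% of all tested genes were called higher and 34.8% lower. Of the 10, 4 rose, 4 fell and 2 did not pass, with a median of -0.012. Without tryptophan depletion replicate 1, without replicate 2 or without the trend, 2 rose. PELO, which acts with HBS1L on stalled ribosomes, went from 2202 and 2242 to 5096 and 5126 (2.30-fold, log2 fold change 1.20, adjusted p = 6.20e-51). The exosome subunit EXOSC2 fell by 1.24 (3085 and 3017 to 1286 and 1303, adjusted p = 3.07e-48), EXOSC10 by 0.48 (adjusted p = 9.64e-17) and EXOSC3 by 0.34 (adjusted p = 2.08e-05, and by 0.22 under quantile normalization). Between the depletions 39.9% of all tested genes were called higher without histidine and 38.4% lower. Of the 10, 6 were higher, 3 lower and 1 did not pass, with a median difference of 0.50. EXOSC3 (0.89, adjusted p = 2.66e-08), EXOSC2 (0.88, adjusted p = 8.99e-10) and DIS3 (0.60, adjusted p = 1.29e-09) were higher. PELO was lower without histidine than without tryptophan (1922 and 1987 against 5232 and 5218 jointly scaled counts, log2 difference -1.42, adjusted p = 4.54e-12).

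Transcripts known as NMD targets, a list of 23 genes, changed in both directions in both depletions. After histidine depletion 13 rose, 6 fell and 4 did not pass (median log2 fold change 0.26), and after tryptophan depletion 13 rose, 7 fell and 3 did not pass (median 0.32). Of all tested genes, 39.1% were called higher and 38.2% lower after histidine depletion (median 0.010). The shares after tryptophan depletion were 36.1% and 34.8% (median 0.013). Abundance was measured and not decay, several of these genes also respond to stress by transcription, and gene-level counts do not separate the decay-sensitive isoforms of splicing factor genes. GADD45B, a stress sensor, went from 197 and 164 to 5480.4 and 5553 normalized counts without histidine (log2 fold change 4.93, adjusted p = 1.09e-24). PPP1R15A, the stress-induced phosphatase subunit for eIF2alpha, went from 7749 and 7903 to 111985 and 108269 (14.1-fold, log2 fold change 3.81, adjusted p = 2.42e-25). GADD45A rose by 2.40 (adjusted p = 5.37e-21) and UPP1, the uridine phosphorylase, by 2.34 (652 and 665 to 3378 and 3298, adjusted p = 9.09e-21).

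The largest changes of the list without tryptophan were those of other genes, apart from UPP1. DDIT3, the stress transcription factor CHOP, went from 1178 and 1157 to 4635 and 4655 normalized counts (3.98-fold, log2 fold change 1.99, standard error 0.0514, adjusted p = 8.07e-74). PPP1R15A without histidine changed more at a similar standard error (3.81, standard error 0.0539) yet had a larger adjusted p (2.42e-25). Such small values reflect variance pooled over genes and not the 2 libraries per group alone. ERN1, the endoplasmic reticulum sensor IRE1, rose by 1.63 (2836 and 3107 to 9128 and 9309.7, adjusted p = 1.56e-67), UPP1 by 1.66 (648 and 658 to 2025 and 2106, adjusted p = 6.74e-56) and GAS5, a small nucleolar RNA host gene, by 1.38 (11078 and 11410.2 to 29084 and 29244, adjusted p = 1.03e-57). Between the depletions, GADD45B (log2 difference 3.70), PPP1R15A (2.88) and GADD45A (1.97) were higher without histidine, and ERN1 was lower (-1.43). Of the 23, 12 were higher and 8 lower (39.9% and 38.4% of all tested genes), with a median of 0.082. SRSF3 and SLC7A11, named after their values were seen, fell in both depletions, SRSF3 by 1.03 and 1.13 and SLC7A11 by 1.41 and 0.79 (histidine, then tryptophan). ATF4, also named after its values were seen, fell by 0.28 without histidine (adjusted p = 5.91e-05) and had a log2 fold change of 0.011 without tryptophan (adjusted p = 0.855). Under quantile normalization these values were -0.56 and -0.18 (adjusted p = 6.15e-05 for the latter).

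**Figure D4:**
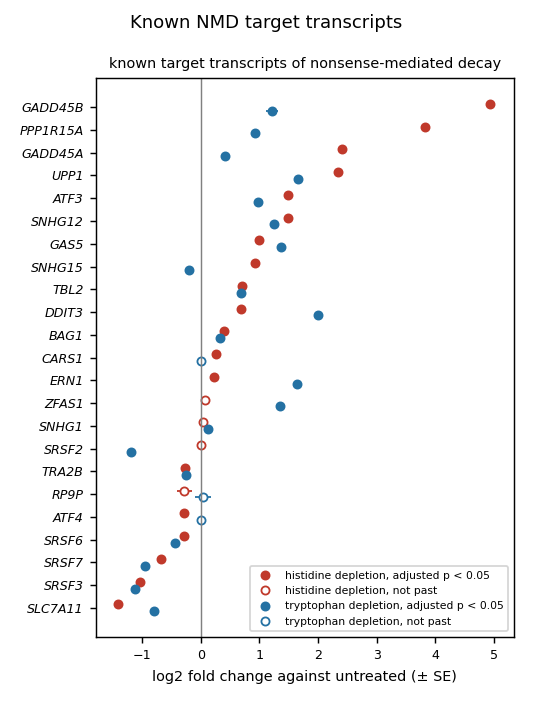
Log2 fold change against untreated cells (± standard error) of 23 known NMD target transcripts for both depletions, with filled points past an adjusted p of 0.05. The genes run from GADD45B, at 4.93 after histidine depletion, to SLC7A11, at -1.41, and the order differs after tryptophan depletion.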

How the data were processed

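RNA-seq libraries of HT29 cells (2 per condition, 48 h) were made by the authors from polyadenylated mRNA with a stranded kit and molecular identifiers, whose use in counting is not given in the sources used here. According to the submitters' processing notes and the methods, reads were aligned with STAR 2.7.10a to GRCh38 and counted on exons with htseq-count (HTSeq 2.0.5) on gencode 38. The deposited signal values, all at 0 or above, are counts divided by DESeq2 size factors, in 1 table per depletion with the same untreated libraries. Each table has its own size factors, and comparisons with untreated cells were made inside it.

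Whole reads were recovered from 100% of values (tolerance 0.001), with 46390819 to 64388876 reads per library. Of 60676 identifiers, 60357 were found in GENCODE 44 and 319 were not. limma 3.58.1 in R 4.3.3 (trend, two-sided) was run on log2(normalized count + 1), keeping genes whose mean reached 10, with Benjamini-Hochberg adjustment over all genes and a threshold of 0.05. For histidine against tryptophan depletion median-of-ratios size factors were computed over the reads of all 6 libraries. Members and lists were chosen with earlier results of these data known. Named were all members, per list up to 4 genes with the largest change past the threshold and a mean of at least 100 in the higher group, and the 3 nearest profiles to the most changed member. The recovered reads were also tested with DESeq2 1.42.0 and with edgeR 4.0.16 (TMM). The other alternatives were a pseudocount of 0.5 or 8, a mean of 50 or no filter, no trend, quantile normalization, the replicate number as a block, all 6 libraries in 1 fit, a log2 fold change of at least 1, each library left out, and pseudogene reads added. On simulated counts of 18313 genes for histidine depletion, 111 genes were changed 1.5-fold and 89 genes 2-fold. Of these, 100% were recovered, with 3.38% false calls. Only well-expressed genes were changed, far fewer than were called in the data, and the simulated dispersion was fixed. Smaller changes, such as those of UPF3A and SMG5 after histidine depletion, were not simulated, so the reliability of the member calls was not tested. Tables were handled in Python 3.11.15 (numpy 2.4.6, pandas 2.3.3) and drawn with matplotlib 3.10.9. The values of 1 gene of the lists are not reported here.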

Additional observations from a re-analysis of the deposited data

Results flagged for a closer look

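For each of the 9 factors the response to histidine depletion differed from that to tryptophan depletion in the direct test (limma, log2 difference, histidine minus tryptophan). That test called 39.9% of all tested genes higher and 38.4% lower. The difference was 1.12 for UPF3B, 1.04 for UPF1, 0.99 for SMG9, 0.55 for SMG1, 0.45 for SMG5, 0.42 for SMG8, 0.36 for UPF2, 0.35 for UPF3A and -0.50 for SMG6. The base media of the depletions also differed, and the part of the medium in these differences cannot be told apart from that of the amino acid. No member in a group of 2 libraries could be tested for an outlying sample.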

How the results depend on the processing

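Over the alternatives, the members' log2 fold changes kept direction and side of the threshold in 355 cases, lost the call in 11, gained it in 2 and changed sign in 7. The genes named from the other lists kept both in 940 cases, lost the call in 3 (SAP18 after tryptophan depletion) and changed sign in 3 (ATF4 after tryptophan depletion, at -0.18 under quantile normalization and from -0.0042 to 0.027 over the libraries left out). The direct comparison kept all 9 member calls under every setting other than the limit on fold change. After histidine depletion, quantile normalization gave -0.065 for SMG5. After tryptophan depletion it gave -0.041 for UPF2, -0.073 for SMG1 and 0.018 for SMG6, and leaving out 1 untreated library gave -0.013 for UPF2 and -0.054 for SMG1 (without replicate 1) and 0.00019 for SMG6 (without replicate 2). Over all libraries left out, these 3 ran from -0.013 to 0.081 for UPF2, from -0.054 to 0.11 for SMG1 and from -0.096 to 0.00019 for SMG6. The causes were not tested. SMG8 being the only member called higher after tryptophan depletion, the count of 1 was 0 without the trend and with DESeq2 and ran from 0 to 3 over the libraries left out. Besides the losses given above, SMG5 after histidine depletion (adjusted p = 0.0523), UPF1 after tryptophan depletion (0.0881) and SMG8 after tryptophan depletion (0.0567) did not pass without the trend. With a log2 fold change of at least 1 also required, the members called were 1 higher and 0 lower for histidine depletion, 0 higher and 0 lower for tryptophan depletion, and 2 higher and 0 lower between the depletions, while 3002 and 2947, 1801 and 1873, and 2999 and 2864 of all genes were called. In no setting did the median over all genes move by 0.1.

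The replicate numbers are only shared labels. Deviations of samples with the same number correlated at 0.108 (untreated and histidine), -0.0179 and -0.0513 over 13913 genes. With the replicate block 8 members were higher and 1 lower after histidine depletion, 1 higher and 4 lower after tryptophan depletion, and 7311 against 7149 genes were called higher for histidine depletion. With 1 library left out, the lone sample is assumed to vary like the other group. The lowest member had 888 reads in a library. Whether read depth or the 2 libraries per group limited the calls was not tested.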
